A study of Homo sapiens with 6 samples.

Results

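The SRSF genes encode the SR proteins, the serine/arginine-rich splicing factors that bind exons and recruit the spliceosome. The 10 genes described here are SRSF1, SRSF2, SRSF3, SRSF4, SRSF5, SRSF6, SRSF7, SRSF9, SRSF10 and SRSF11. They were chosen by gene symbol from a gene table of 35993 genes and a transcript table of 81203 transcripts, in which they hold 42 transcripts. RNA was sequenced from MIA PaCa-2, an established human pancreatic carcinoma cell line. Of the 6 libraries, 3 came from untreated cells and 3 from cells given 4 µM rhCYGB, the recombinant human cytoglobin protein, for 48 h, and both groups were kept in medium with 1% serum. All libraries come from 1 cell line, and nothing in the sources states that libraries of a group were separate cultures, so the p-values measure only the spread between these libraries. Gene counts summed to between 34838399 and 42271299 per library. Of 6 carcinoma line markers, KRT8, KRT18, KRT19 and VIM were abundant in every library, while EPCAM was at 0 counts in all 6 and CDH1 at 0 to 2 counts. The fibroblast markers DCN and LUM, the endothelial marker PECAM1 and the leukocyte marker PTPRC were at 0 counts in every library. Of the other 4 markers of other cell types, COL1A1 had at most 10 counts, VWF at most 8 and ACTA2 180 to 243. The macrophage marker CD68, which lysosomes of other cells also hold, had 1335 to 1702 counts in untreated and 2410 to 2652 in rhCYGB libraries, and its part in the results was not tested.

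An SR protein carries an RNA recognition motif and a tail rich in arginine and serine whose phosphorylation by SRPK and CLK kinases sets its place in the nucleus and its activity. SR proteins bind enhancer sequences in exons and thereby favor the use of nearby splice sites, and several also act in mRNA export and translation. Many SRSF genes limit their own output: high levels of the protein favor a transcript that holds a poison exon or a retained intron with an early stop codon, and nonsense-mediated decay (NMD) removes that transcript. In the RefSeq names used by the tables, NM marks a coding and NR a noncoding transcript, and transcripts of the early-stop kind are often filed as NR. Of the 42 SRSF transcripts, 6 were NR, 1 each for SRSF1, SRSF2, SRSF3, SRSF6, SRSF10 and SRSF11.

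The stretches that set 4 of the NR transcripts apart from a coding transcript of the same gene are shown because they hold the early stop codon. They were read from GENCODE 29 transcripts matched to the RefSeq names, in GRCh38, 5′ to 3′ on the coding strand, each from the point where it departs from the coding transcript to the first stop codon in frame, which is in capitals.
SRSF1 NR_034041: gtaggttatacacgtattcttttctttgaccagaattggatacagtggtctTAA
SRSF3 NR_036610: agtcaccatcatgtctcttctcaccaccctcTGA
SRSF6 NR_034009: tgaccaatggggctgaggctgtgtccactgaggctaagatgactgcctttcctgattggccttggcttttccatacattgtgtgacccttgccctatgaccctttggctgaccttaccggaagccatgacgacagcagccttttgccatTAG
SRSF10 NR_034035: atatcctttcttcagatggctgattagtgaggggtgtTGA
The SRSF1 stretch opens 200 bases at chr17:58005601-58005800 on the minus strand that NM_006924 splices out, and the frame ends after 201 residues in place of 248. The SRSF3 stretch opens a 456-base exon at chr6:36599821-36600276 on the plus strand, absent from NM_003017, and the frame ends after 124 residues in place of 164. The SRSF6 stretch opens a 268-base exon at chr20:43459153-43459420 on the plus strand, absent from NM_006275, and the frame ends after 135 residues in place of 344. The SRSF10 stretch opens a 60-base extension of an exon at chr1:23978653-23978712 on the minus strand, and the frame ends after 69 residues in place of the 183 of NM_006625. In all 4 the stop codon lies well upstream of the last exon junction, by 824 bases in SRSF1, 548 in SRSF3, 534 in SRSF6 and 678 in SRSF10, the arrangement that NMD recognises. GENCODE classes the transcripts matched to SRSF1, SRSF3 and SRSF6 as nonsense-mediated decay and that of SRSF10 as a processed transcript. For these 4 the length in the table (4722, 3600, 4621 and 4337 bases) equalled a computed one. It was computed from the coding transcript's length in the table, the stretches gained and lost in GENCODE, and the shift of the ends in the table. The matched GENCODE transcripts themselves were shorter (1720, 1095, 1680 and 2839 bases), so the equality does not check the ends. The SRSF6 pair of transcripts differs by the exon alone. In SRSF3 the NR transcript also starts 49 bases upstream of the coding one and ends 1133 bases before it. In SRSF1 it also lacks 921 bases and starts 100 bases further upstream. In SRSF10 it also holds a further exon of 363 bases and lacks 26 bases. NR_036608 of SRSF2 was 1992 bases long in the table against 1494 computed from its match, and NR_146810 of SRSF11 had no match, so no sequence is shown for them. The SRSF2 match keeps the 221 residues of the coding frame, unlike the 4 shown. Its stop codon lies 209 bases upstream of the last exon junction, and GENCODE classes it as nonsense-mediated decay.

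At the gene level, transcripts of the SRSF family were scarcer after rhCYGB. Taken over the 10 genes, the summed level was 2075 ± 20.3 CPM (counts scaled to library size; SD, n = 3) in untreated libraries and 1323 ± 5.52 in rhCYGB libraries, which is 63.8% of the untreated level. In the quasi-likelihood test of edgeR, adjusted by Benjamini-Hochberg over 14728 genes, 9 of the 10 genes fell and 1, SRSF4, rose at an adjusted p under 0.05. The test passes many genes in these libraries: 38.6% of all genes tested fell and 39.0% rose. SRSF1, SRSF2, SRSF5 and SRSF9 fell by 2-fold or more, which 14.7% of all genes did, and no SRSF gene rose by 2-fold or more, which 12.4% did. The median log2 fold change was -0.56 over the 10 genes and -0.0046 over all genes tested. The values of the 2 groups did not overlap for any of the 10 genes, but how many of all genes tested lack overlap was not counted. In bulk RNA, fewer cells expressing a gene and less RNA per cell cannot be told apart.

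**Figure D1:**
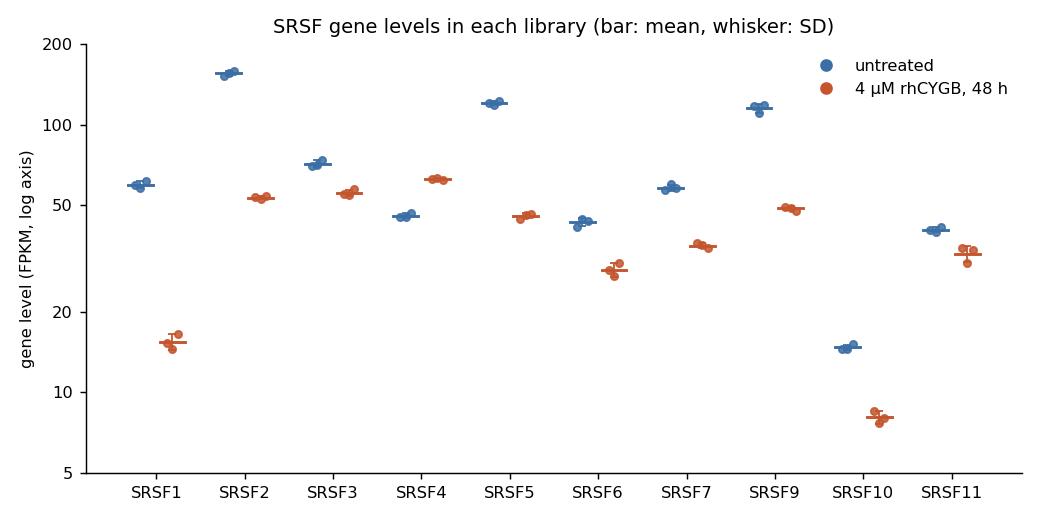
Gene level in FPKM (fragments relative to transcript length and mapped reads, log axis) of the 10 SRSF genes in each untreated (blue) and rhCYGB (orange) library, with the mean as a bar and the SD as a whisker (n = 3 per group). SRSF4 is the gene whose 3 rhCYGB points lie above the untreated points, and SRSF1 has the widest gap in the other direction, from 59.6 to 15.5 FPKM.

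SRSF1, a founding SR protein that can also act as an oncogene, fell the furthest. Its level was 342, 332 and 349 CPM in untreated libraries 1, 2 and 3 and 95.3, 95.4 and 102 CPM in rhCYGB libraries 1, 2 and 3, a log2 fold change of -1.80 ± 0.041 (SE; adjusted p = 1.00e-14, edgeR). SRSF2, a resident of nuclear speckles that also aids the release of paused RNA polymerase, stood at 341, 343 and 348 CPM in the untreated libraries and at 155, 156 and 159 CPM after rhCYGB. The log2 fold change of SRSF2 was -1.14 ± 0.035 (adjusted p = 2.25e-13, edgeR). The 3 libraries of each group lay within a few percent of each other for both genes, far closer than the gap between the groups. Part of the SRSF2 locus is shared with MFSD11, which had 363 to 510 counts per library against 5180 to 15384 for SRSF2, and with the microRNA gene MIR636, which had at most 6. Whether strand was used in the counting is not stated in the sources used here.

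SRSF5 and SRSF9 fell by a similar amount. SRSF5, an SR protein with a pair of RNA recognition motifs whose transcript is known to respond to growth signals, had 197, 192 and 197 CPM without and 81.9, 87.4 and 84.1 CPM with rhCYGB (log2 fold change -1.21 ± 0.039, adjusted p = 3.72e-13, edgeR). SRSF9, a family member with a short serine/arginine tail, had 146, 136 and 145 CPM without and 68.1, 69.5 and 64.9 CPM with rhCYGB (log2 fold change -1.08 ± 0.044, adjusted p = 4.76e-12, edgeR). SRSF9 overlaps GATC, which had 1946 to 2872 counts per library. The pseudogene SRSF9P1 had 36 to 51 counts in untreated and 14 to 18 in rhCYGB libraries.

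Smaller falls were measured for 5 genes. SRSF7, which carries a zinc knuckle beside its RNA recognition motif and acts in mRNA export, fell from 148 ± 3.38 to 101 ± 3.25 CPM (log2 fold change -0.56, adjusted p = 3.40e-09). SRSF10, a splicing repressor when dephosphorylated, fell from 98.2 ± 1.44 to 66.3 ± 3.43 CPM (log2 fold change -0.57, adjusted p = 1.53e-08). SRSF6, a regulator of alternative exons in wound healing and cancer, fell from 205 ± 5.66 to 157 ± 6.28 CPM (log2 fold change -0.38, adjusted p = 4.25e-07). SRSF3, the smallest SR protein and an adaptor for mRNA export, fell from 316 ± 5.29 to 261 ± 0.481 CPM (log2 fold change -0.28, adjusted p = 2.32e-06). SRSF11, a divergent member that interacts with U2AF, had 174, 169 and 174 CPM without and 165, 150 and 159 CPM with rhCYGB. Its log2 fold change of -0.12 ± 0.041 passed the test (adjusted p = 0.0138, edgeR) but not without rhCYGB replicate 2 (-0.088, adjusted p = 0.0659).

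SRSF4, whose long serine/arginine tail makes it the largest of the classical members, was the 1 gene that rose. It had 112, 112 and 115 CPM in the untreated libraries and 172, 180 and 169 CPM after rhCYGB, a 1.54-fold rise (log2 fold change 0.62 ± 0.038, adjusted p = 6.14e-10, edgeR). The 4 falls of 2-fold or more and the rise of SRSF4 passed the test under each of the 9 alternative settings and without any 1 of the 6 libraries.

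The levels relative to transcript length, in FPKM, changed order. In untreated cells SRSF2 stood first at 156 ± 3.38 FPKM. SRSF5 (120 ± 2.23) and SRSF9 (115 ± 4.50) followed, with ranges that overlapped, and then SRSF3 at 71.4 ± 2.06. SRSF1 (59.6 ± 1.84) and SRSF7 (58.2 ± 1.5) also overlapped, and SRSF4 (45.7 ± 1.07), SRSF6 (43.2 ± 1.53), SRSF11 (40.5 ± 0.902) and SRSF10 (14.7 ± 0.349) came last, each separate from the next. After rhCYGB, SRSF4 stood first at 62.8 ± 0.535 FPKM, followed by SRSF3 (55.7 ± 1.5), SRSF2 (53.4 ± 0.625), SRSF9 (48.7 ± 0.895) and SRSF5 (45.6 ± 0.995), none of which overlapped. SRSF7 stood at 35.3 ± 0.822, SRSF11 (32.9 ± 2.21) overlapped SRSF6 (28.7 ± 1.65), and SRSF1 (15.5 ± 1.04) and SRSF10 (8.08 ± 0.434) were lowest. As a share of the summed FPKM of the 10 genes, SRSF4 went from 6.30% to 16.2%, SRSF2 from 21.5% to 13.8% and SRSF1 from 8.23% to 4.00% (means of 3 libraries).

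The fall at the gene level was not shared by all transcripts. Of the 42 SRSF transcripts, all of which entered the transcript test, 16 fell and 4 rose (edgeR, adjusted over 32577 transcripts), while 14.8% of all transcripts tested fell and 15.1% rose. The 4 that rose were the single transcript of SRSF4 and the NR transcripts of SRSF3, SRSF6 and SRSF10. NR_034009 of SRSF6 rose with a log2 fold change of 1.24 ± 0.26 (adjusted p = 0.0184), NR_034035 of SRSF10 with 1.5 ± 0.28 (adjusted p = 0.0118) and NR_036610 of SRSF3 with 1.40 ± 0.39 (adjusted p = 0.0453). The rise of NR_036610 passed the test when untreated replicate 2 or 3 was left out, but not without any 1 of the other 4 libraries (adjusted p 0.0219 to 0.121 over the 6). The rise of NR_034009 was lost without untreated replicate 3, rhCYGB replicate 1 or rhCYGB replicate 3 (log2 fold change 1.16, 1.27 and 1.17), with adjusted p up to 0.0696. NR_036608 of SRSF2 (log2 fold change 0.60, adjusted p = 0.146) and NR_034041 of SRSF1 (-0.33, adjusted p = 0.485) did not pass. The NR transcript of SRSF11, NR_146810, fell (log2 fold change -0.82 ± 0.15, adjusted p = 0.00960).

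The share of each gene's counts on its NR transcript was higher after rhCYGB in 5 of the 6 genes that have such a transcript, with no overlap between the groups, and lower in SRSF11, also without overlap. How many of all genes with both classes lack overlap was not counted. An edgeR test of NR against NM counts within each library was run on 1668 genes that hold both classes, and 3 SRSF genes passed with a higher share, SRSF2, SRSF6 and SRSF10. Over all 1668 genes 4.50% passed with a higher share and 0.540% with a lower one, and the median log2 odds ratio was 0.63, against 2.15 over the 6 SRSF genes. The transcript counts are estimates that StringTie made by dividing reads between overlapping transcripts, so a share carries the error of that division, which counting intervals do not cover. The calls were close to the threshold: with any 1 library left out between 0 and 2 of the 3 passed, while the odds ratios kept their direction and were within the ranges given below for each gene.

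**Figure D2:**
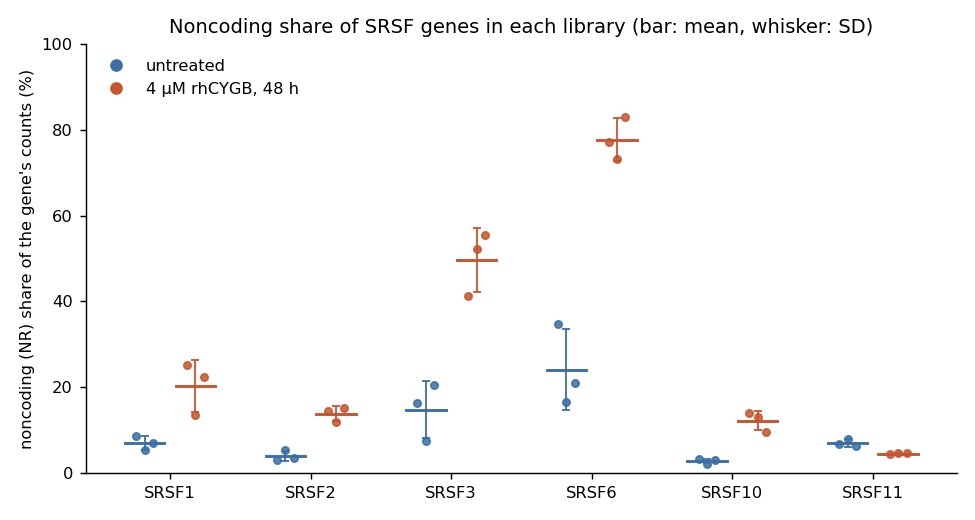
Share of a gene's transcript counts on its NR transcript (%), for the 6 SRSF genes that have one, in each untreated (blue) and rhCYGB (orange) library; bars are means and whiskers SDs (n = 3 per group). The points of SRSF6 go from between 16.5% and 34.7% to between 73.1% and 82.9%, and those of SRSF11 lie slightly lower after rhCYGB.

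In SRSF6, the NR transcript with the 268-base exon took 34.7%, 16.5% and 21.1% of the counts in untreated libraries 1, 2 and 3 and 77.1%, 73.1% and 82.9% in rhCYGB libraries 1, 2 and 3. The NR transcript was thus the minor form in every untreated library and the major form in every rhCYGB library. The log2 odds ratio was 3.54 ± 0.49 (SE), an odds ratio of 11.7 (adjusted p = 0.0226, edgeR), and it was between 3.23 and 3.94 with 1 library left out, at an adjusted p of 0.0408 to 0.0963. The level of NM_006275, the coding transcript, fell to 22.4% of its untreated level, from 156 to 34.9 CPM, while the NR level went from 49.0 to 122 CPM. The 1.30-fold fall of SRSF6 as a gene was thus the sum of transcripts that moved in opposite directions.

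In SRSF3, the NR transcript with the 456-base exon took 16.4%, 7.35% and 20.4% of the counts without and 41.1%, 52.1% and 55.4% with rhCYGB. Every rhCYGB library was above every untreated one. The log2 odds ratio of 2.62 ± 0.53 missed the threshold (adjusted p = 0.0554, edgeR), and it passed with limma on log2 ratios of counts (adjusted p = 0.0493) or of FPKM (0.0457) and with a minimum mean of 50 counts (0.0381). By edgeR it also missed with a minimum mean of 1 count (adjusted p = 0.0627) and with the replicate number as a block (0.194). With 1 library left out the log2 odds ratio was between 2.13 and 2.98, at an adjusted p of 0.0538 to 0.159 (edgeR). The coding transcript NM_003017 fell (log2 fold change -1.11 ± 0.12, adjusted p = 0.00144), and 48.8% of its level was left.

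In SRSF10, the NR share was 3.17%, 2.12% and 3.02% without and 13.9%, 13.1% and 9.65% with rhCYGB. The log2 odds ratio was 2.29 ± 0.38 (adjusted p = 0.0291, edgeR), between 2.1 and 2.47 with 1 library left out, where the adjusted p was 0.0674 to 0.115. Counts for this transcript were low, at a mean level of 2.72 CPM in untreated and 8.10 CPM in rhCYGB libraries. The coding transcripts of SRSF10 together kept 60.9% of their untreated level.

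In SRSF2, the NR share was 2.90%, 5.32% and 3.55% without and 14.4%, 11.9% and 15.1% with rhCYGB. The GENCODE match of this NR transcript keeps the full coding frame, so the share does not count a shortened frame there. The log2 odds ratio was 2.02 ± 0.33 (adjusted p = 0.0291, edgeR), between 1.81 and 2.27 with 1 library left out, where the adjusted p was 0.0447 to 0.109. The level of the NR transcript was 13.5 ± 4.30 CPM without and 21.7 ± 2.80 CPM with rhCYGB, while the coding transcripts fell to 40.8% of their untreated level.

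In SRSF1, the NR share was 8.52%, 5.33% and 6.87% without and 25.1%, 13.5% and 22.3% with rhCYGB. The groups did not overlap, but rhCYGB library 2 was well below the other two, and the log2 odds ratio of 1.76 ± 0.41 did not pass (adjusted p = 0.0769, edgeR). The NR levels of the groups overlapped, at 23.6 ± 5.74 CPM without and 19.9 ± 6.11 CPM with rhCYGB, while the coding level fell to 24.5% of untreated. SRSF11 had an NR share of 6.71%, 7.88% and 6.18% without and 4.33%, 4.54% and 4.65% with rhCYGB (log2 odds ratio -0.65 ± 0.27, adjusted p = 0.238, edgeR), and its coding transcripts kept 94.3% of their level.

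**Figure D3:**
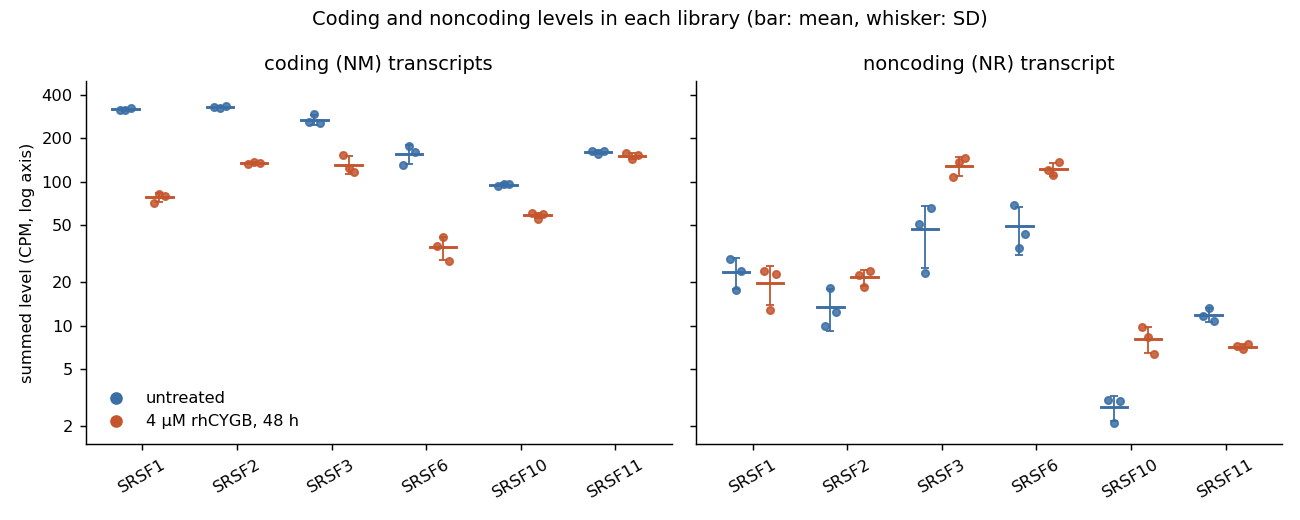
Summed level in CPM (log axis) of the coding NM transcripts (left) and of the noncoding NR transcript (right) of the 6 SRSF genes with both classes, in each untreated (blue) and rhCYGB (orange) library, with means and SDs (n = 3 per group). In SRSF3, SRSF6 and SRSF10 the coding level lies lower and the noncoding level higher after rhCYGB, while in SRSF1 the coding level alone is apart.

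Summed over the 10 genes, coding transcripts went from 1928 ± 33.8 to 1015 ± 26.2 CPM, 52.7% of the untreated level, and noncoding transcripts from 147 ± 33.6 to 308 ± 28.8 CPM. The noncoding part of all SRSF counts was 8.42%, 5.31% and 7.55% in untreated libraries 1, 2 and 3 and 21.9%, 22.3% and 25.7% in rhCYGB libraries 1, 2 and 3. Most of the noncoding counts in both groups came from SRSF3 and SRSF6.

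Shares also moved between coding transcripts. Of the 42 transcripts, 40 entered the isoform share test, since SRSF4 and SRSF9 each have a single transcript, and 2 passed with a higher and 2 with a lower share (edgeR, adjusted over 27537 transcripts). Over all transcripts tested 0.904% passed with a higher and 0.530% with a lower share. The 4 were the SRSF6 pair described above (adjusted p = 0.0479 in this fit) and both coding transcripts of SRSF2. The SRSF6 calls are the same contrast seen from both sides, already counted among the NR shares. Those of SRSF2 largely mirror each other, so the 4 calls are not independent. With any 1 library left out 0 of the 40 passed by edgeR (adjusted p 0.0985 to 0.149 for the 4). Each odds ratio of the 4 kept its direction. At an unadjusted p under 0.05 in the same edgeR fits, 7 to 9 of the 40 were higher and 9 to 10 lower. How many of all transcripts tested pass at an unadjusted p was not counted, so these unadjusted counts have no background.

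The coding transcripts of SRSF2, NM_001195427 and NM_003016, changed places. NM_001195427 held 72.6%, 74.1% and 74.0% of the SRSF2 counts in untreated libraries 1, 2 and 3 and 26.9%, 31.1% and 19.5% in rhCYGB libraries 1, 2 and 3 (log2 odds ratio -3.02 ± 0.32, adjusted p = 0.0379, edgeR). NM_003016 held 24.5%, 20.6% and 22.5% without and 58.7%, 56.9% and 65.4% with rhCYGB (log2 odds ratio 2.40 ± 0.27, adjusted p = 0.0389, edgeR). Per length, from FPKM, the share of NM_001195427 was 80.3% without and 33.3% with rhCYGB, a shift of similar size although NM_003016 is the longer transcript (2963 against 1888 bases). GENCODE gives both transcripts the same protein length, 221 residues. NM_001195427 fell by 2.73 on the log2 scale (adjusted p = 0.000218), whereas NM_003016 had 79.7 ± 6.35 CPM without and 92.1 ± 7.67 CPM with rhCYGB (adjusted p = 0.140).

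**Figure D4:**
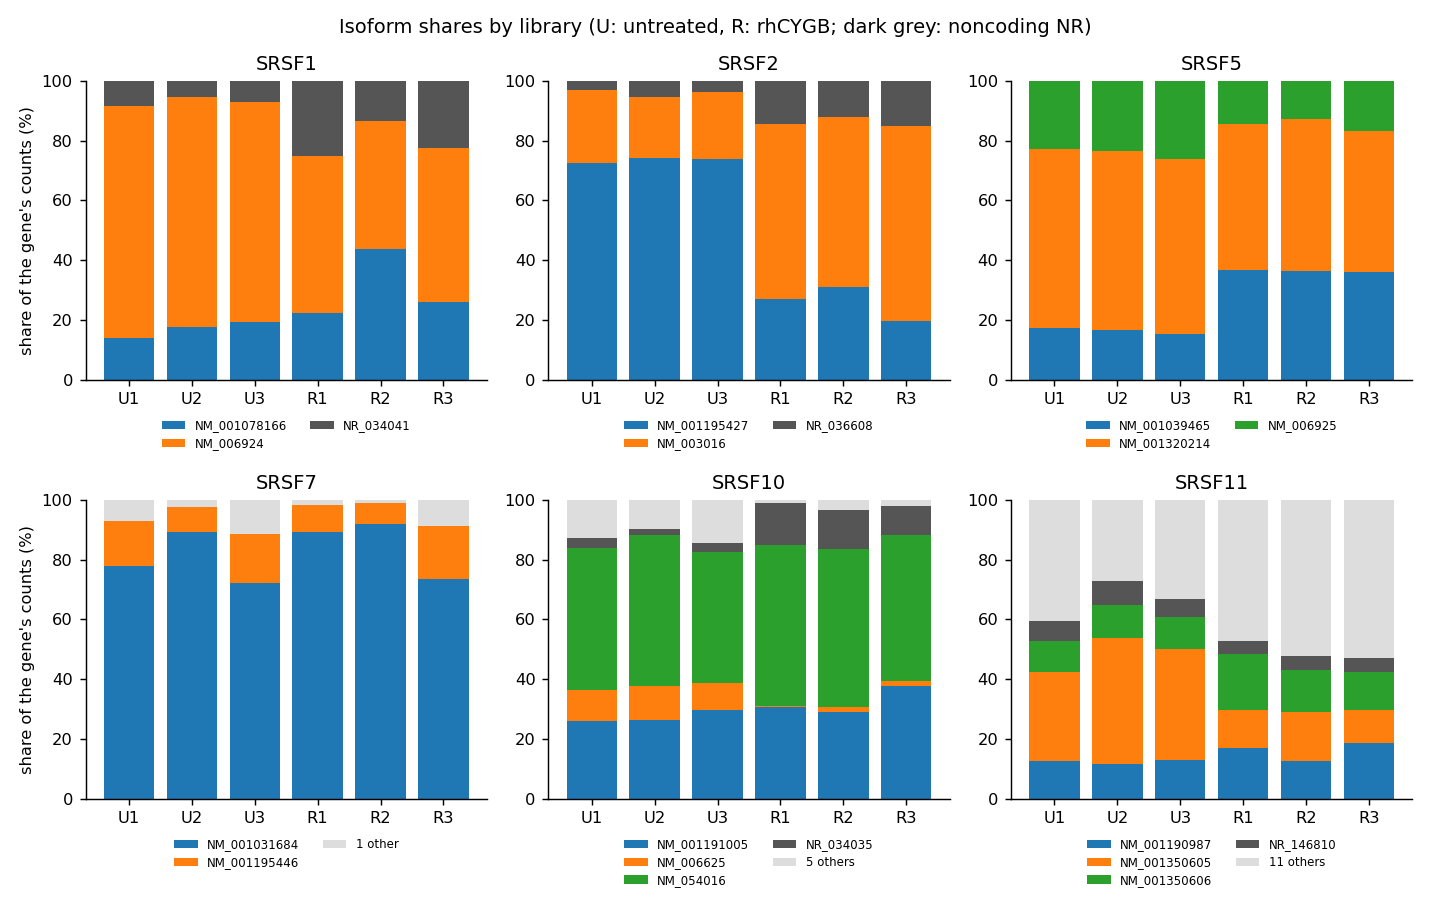
Share of each gene's transcript counts (%) by transcript, for the 6 SRSF genes with 3 or more transcripts, in untreated (U1 to U3) and rhCYGB (R1 to R3) libraries; dark grey is the NR transcript and light grey the transcripts under 10% in both groups. In SRSF2 the blue and orange transcripts exchange rank between the groups, and in SRSF7 the libraries differ as much within a group as between groups.

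SRSF1 has a further coding transcript, NM_001078166, which was 5543 bases long in the table against 5343 for NM_006924 and which ends after 201 residues, like the NR transcript. It counts as coding, so the NR share of SRSF1 does not cover every form that ends after 201 residues. The full-length form NM_006924 held 77.5%, 76.9% and 73.7% of the SRSF1 counts without and 52.6%, 42.8% and 51.8% with rhCYGB (log2 odds ratio -1.72 ± 0.28, adjusted p = 0.0592, edgeR), a difference with no overlap that missed the threshold. NM_001078166 held 13.95%, 17.7% and 19.4% without and 22.2%, 43.7% and 25.8% with rhCYGB (adjusted p = 0.364). The level of NM_006924 fell by 2.51 on the log2 scale (adjusted p = 4.35e-05), from 267 ± 3.92 to 46.7 ± 5.88 CPM.

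In SRSF5, all 3 transcripts are coding, and the GENCODE match of each has 272 residues. NM_001320214 and NM_006925 share the same match. NM_001039465 held 17.2%, 16.5% and 15.4% of the counts without and 36.9%, 36.3% and 36.2% with rhCYGB, with no overlap between the groups (log2 odds ratio 1.55 ± 0.26, adjusted p = 0.0629, edgeR). NM_001320214 went from 59.6% ± 0.900 to 48.8% ± 1.93 (adjusted p = 0.344) and NM_006925 from 24.0% ± 1.76 to 14.7% ± 2.00 (adjusted p = 0.236). At the transcript level NM_001320214 and NM_006925 fell, by 1.58 and 2.00 on the log2 scale (adjusted p = 4.39e-05 and 0.000158), while NM_001039465 had 33.0 ± 1.74 CPM without and 29.98 ± 1.1 CPM with rhCYGB (adjusted p = 0.210).

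SRSF10 has 9 transcripts. Both longest forms, NM_054016 (262 residues) and NM_001191005 (261 residues), held 47.3% ± 3.44 and 27.3% ± 2.1 of the counts without and 52.0% ± 2.55 and 32.5% ± 4.56 with rhCYGB, with overlapping groups. NM_006625, which encodes 183 residues, held 10.3%, 11.4% and 9.11% without and 0.269%, 1.66% and 1.57% with rhCYGB (log2 odds ratio -3.56 ± 0.81, adjusted p = 0.111, edgeR). Its level fell by 3.81 on the log2 scale (adjusted p = 0.0107), from 10.4 ± 1.20 to 0.739 ± 0.482 CPM.

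SRSF11 has 15 transcripts, among which estimates were spread thinly. NM_001350605 held 29.7%, 41.9% and 37.3% of the counts without and 12.8%, 16.6% and 10.8% with rhCYGB (log2 odds ratio -1.89 ± 0.36, adjusted p = 0.0798, edgeR), and its level fell by 1.65 on the log2 scale (adjusted p = 0.00204). NM_001190987 was at 12.4% ± 0.621 and 16.0% ± 3.23, and NM_001350606 at 10.7% ± 0.390 and 15.2% ± 3.11 (adjusted p = 0.588 and 0.439). In SRSF7, NM_001031684 was at 79.9% ± 8.70 and 84.9% ± 10.0 and NM_001195446 at 13.2% ± 4.25 and 11.4% ± 5.76, with overlapping groups (adjusted p = 0.747 and 0.835).

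The counts for lists of proteins that act beside the SR proteins are read against all genes tested, of which 39.0% rose and 38.6% fell. Of 27 SR-related splicing proteins tested, 15 rose and 9 fell, with a median log2 fold change of 0.11 that turned to -0.060 with total counts and to -0.065 with limma on log2(FPKM + 1), settings under which the median of all genes was -0.17 and -0.086. RSRC2, an SR-rich coiled-coil protein, rose by 1.58 on the log2 scale and SCAF8, which binds the tail of RNA polymerase II, rose by 1.19. LUC7L3, a U1-associated factor, fell by 1.58 and TRA2B, a sequence-specific splicing activator, fell by 0.60. Each had an adjusted p of at most 6.85e-10 (edgeR).

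Of 11 SR protein kinases and transport factors tested, 9 rose and 1 fell, with a median log2 fold change of 0.58, beside 39.0% and 38.6% of all genes. The kinases CLK3 (log2 fold change 1.06, adjusted p = 1.91e-11) and SRPK2 (1.00, adjusted p = 1.42e-11) rose the furthest. SRPK1, which phosphorylates SR proteins in the cytoplasm, was the 1 that fell (log2 fold change -0.56, adjusted p = 8.05e-09, edgeR). With total counts or with limma on FPKM, 2 of the 11 fell.

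**Figure D5:**
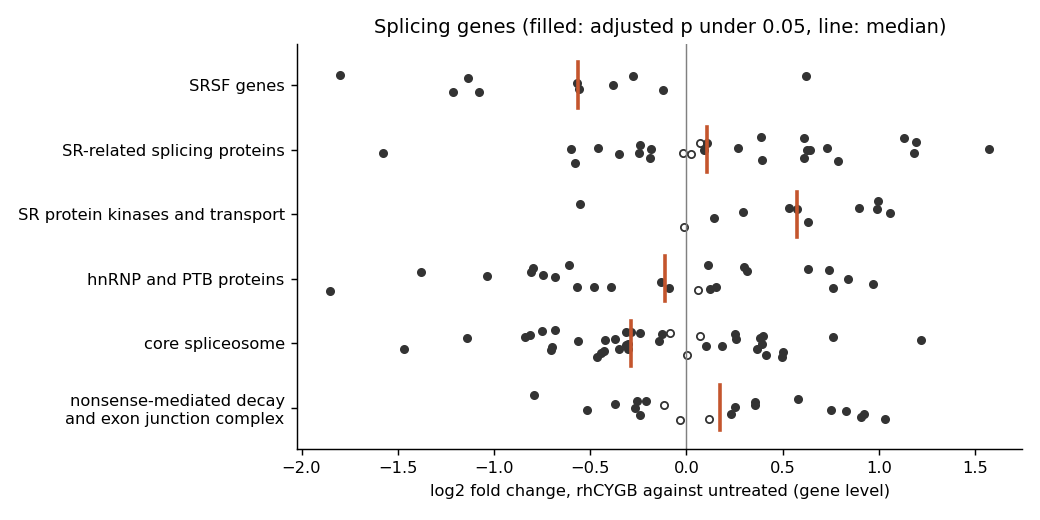
Gene-level log2 fold change (rhCYGB against untreated) of the 10 SRSF genes and of the members of 5 lists of splicing and decay genes; each point is a gene, filled where the adjusted p is under 0.05, and the orange line is the median of the list. The median is -0.56 for the SRSF genes and 0.58 for the SR protein kinases and transport factors, and each list holds genes on both sides of 0.

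Of 24 hnRNP and PTB proteins, the RNA-binding proteins that often oppose SR proteins at exons, 10 rose and 13 fell (median log2 fold change -0.11), where 39.0% of all genes rose and 38.6% fell, so the number that rose was near the background. HNRNPM and HNRNPA2B1 fell by 1.85 and 1.38 on the log2 scale, and PTBP2 and PTBP3 rose by 0.97 and 0.84. Of 39 core spliceosome genes 13 rose and 23 fell (median -0.29, against the same background), among them the helicases DDX46 (-1.47) and DDX23 (-1.14), while the U2 particle proteins SF3A2 (1.22) and SF3B2 (0.76) rose. Each of these 8 genes had an adjusted p of at most 5.54e-09 (edgeR).

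Of 20 NMD and exon junction complex genes, which act on transcripts with early stops, 10 rose and 7 fell, with a median log2 fold change of 0.18. Over all genes 39.0% rose and 38.6% fell, and the counts of this list lie near those shares. SMG1, the kinase of the NMD factor UPF1, rose by 1.03 on the log2 scale and CASC3, an exon junction protein, rose by 0.92. The exon junction proteins RBM8A and EIF4A3 fell by 0.79 and 0.52. Each had an adjusted p of at most 1.48e-08 (edgeR). The part of these changes in the NR shares was not tested.

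Across the 5 lists, 25 genes had both NR and NM counts for the share test, of which 5 passed with a higher NR share and 0 with a lower one by edgeR and by limma (at an unadjusted p under 0.05, 8 and 2 by edgeR and 9 and 2 by limma). By edgeR, 4.50% of all 1668 genes passed with a higher share and 0.540% with a lower one. By limma on log2 ratios of counts, 96 of the 1668 genes passed with a higher share and 15 with a lower one. How many of all 1668 genes pass at an unadjusted p was not counted, so the unadjusted counts have no background. HNRNPA1 went from 0.972% ± 0.0877 to 6.26% ± 0.669 (log2 odds ratio 2.77, adjusted p = 0.00276), HNRNPDL from 26.1% ± 3.57 to 51.9% ± 2.77 (1.61, adjusted p = 0.0291) and MAGOHB, an exon junction protein, from 23.4% ± 2.41 to 58.7% ± 6.17 (2.23, adjusted p = 0.0377). DDX46 went from 1.41% ± 0.285 to 14.1% ± 6.19 (3.45, adjusted p = 0.0226) and SNRPA1, a U2 particle protein, from 3.96% ± 0.547 to 23.6% ± 3.15 (2.90, adjusted p = 0.0215, all edgeR). Whether these 5 calls hold with a library left out was not examined. Over all 1668 genes, the number called higher went from 75 to between 4 and 67 with 1 library left out. It was 0 with the replicate number as a block.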

How the data were processed

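RNA from 3 untreated and 3 rhCYGB-treated MIA PaCa-2 samples was sequenced. Per the labels and the study's methods, a stranded mRNA kit, FastQC 0.11.7, HISAT2 2.1.0 and StringTie 2.1.3b were used. The submitters' processing notes name the mouse build mm10, whereas the tables hold human RefSeq transcripts at positions that do not belong to GRCh38. The chromosome positions printed above are therefore those of GENCODE. The positions in the tables served only relative to each other, for overlaps between genes and for the ends of transcripts. The authors deposited read counts per gene without normalization. They also deposited estimated counts per transcript (whole numbers from StringTie) and FPKM, which are relative to transcript length and mapped reads. For the 10 genes the transcript counts summed exactly to the gene count. The 12 TPM columns were not used.

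In R 4.3.3, the quasi-likelihood test of edgeR 4.0.16 was fitted to all 6 libraries after filterByExpr and TMM scaling, and CPM were computed with TMM-scaled library sizes of the gene table for genes and for NM and NR sums, and of the transcript table for single transcripts. Shares were tested with the same tool on 2 counts per library, the transcript (or NR) and the rest of its gene (or NM), with library as a factor and a minimum mean of 10 counts for each, giving a log2 odds ratio. A result passed at a Benjamini-Hochberg adjusted p under 0.05 over all features tested. The tests were tested on simulated data, with 200 changes planted in better-counted features. They found 98.5% of the changed genes and 99% of the changed shares of each kind. Of unchanged features, 12 of 14528 genes, 9 of 27337 isoform shares and 13 of 1468 noncoding shares were called. The spread between simulated libraries was set in advance and no reads were divided between transcripts. The simulation therefore cannot show how the share tests perform on these estimated counts. No pair of libraries within a group agreed within sampling noise (chi-square over degrees of freedom 4.67 to 6.61).

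The text names all 10 genes, the transcripts with at least 10% of their gene's counts in either group or past the share test, and from each gene list the 2 largest rises, the 2 largest falls and the 2 largest NR shifts that passed. The genes, lists and tests were chosen with earlier results of these data known. In GENCODE 29, 30 of the 42 SRSF transcripts had a match. Alternatives used limma 3.58.1, DESeq2 1.42.0, other scalings and filters, a replicate block and leaving out each library.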

Additional observations from a re-analysis of the deposited data

How the results depend on the processing

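The 9 falls and the rise of SRSF4 at the gene level were called under every scaling, test and filter tried, except that 8 falls were left without rhCYGB replicate 2. Upper-quartile factors and total counts moved the median of all genes to -0.15 and -0.17 on the log2 scale.

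Share calls depended on the settings. The number of SRSF transcripts with a lower share was 2, and it was 0 with a minimum mean of 1 count, 4 with a minimum mean of 50 counts, 4 with diffSpliceDGE of edgeR and 0 to 0 with 1 library left out. The number with a higher share was 2, and it was 0, 5 and 5 under the same settings, 4 with limma on FPKM ratios and 0 to 0 with 1 library left out. Higher NR shares were called in 3 genes, and in 0 to 2 with 1 library left out, where the number called higher over all 1668 genes went from 75 to between 4 and 67. SRSF transcripts called higher numbered 4, and 2 to 5 with 1 library left out.

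Same-numbered libraries did not deviate together (correlations -0.048, 0.0072 and 0.0055), and other pairs had correlations of -0.055 to 0.054. With 3 libraries per group these values show no pairing by number but cannot exclude one. With the replicate number as a block, 0 isoform shares (higher or lower) and 0 NR shares passed, also over all 1668 genes, and 2 SRSF transcripts were called higher.

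With total counts and with limma on log2(FPKM + 1), the median log2 fold change of the SR-related proteins reversed to -0.060 and -0.065. That of the kinases and transport factors was 0.41 and 0.39 (2 falls under both), of hnRNP and PTB proteins -0.28 and -0.19, of the core spliceosome -0.45 and -0.45, and of NMD genes 0.010 and 0.014. With 1 library left out these medians were 0.11 to 0.20, 0.54 to 0.64, -0.13 to -0.080, -0.29 to -0.23 and 0.16 to 0.20. Fewer libraries leave fewer degrees of freedom; the cause of the other changes was not tested.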
